A study of Mus musculus with 16 samples.

Results

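Livers of wild-type mice were compared after 2 weeks of recovery from thioacetamide, with or without choline in the drinking water. Thioacetamide (TAA) is turned into reactive products in hepatocytes, and long intake injures the liver and leaves scar tissue (fibrosis). All 4 libraries came from mice of the WT genotype that had taken TAA at 300 mg/L in their drinking water for 8 weeks and had then stopped. In the choline group, choline chloride at 3.5 g/L was dissolved in the water during those 2 weeks, and the water group went without it. The libraries were chosen by their column labels in the gene count table, 2 per group and 4 of the 16 libraries in all, and no measured value entered the choice. The other 12 libraries, 2 per group, were a control without a stated treatment, the end of TAA, and recovery for 1 or 4 weeks with and without choline. The sources used here give no strain, sex or age. They also do not state whether both libraries of a group are from different animals; every p-value therefore rests on a spread that may be technical.

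Choline is the nutrient from which cells make phosphatidylcholine, the main phospholipid of membranes, lipoproteins and bile. In the liver it is either phosphorylated and built into phospholipid or oxidised in mitochondria to betaine, which gives a methyl group to homocysteine and so feeds the methionine cycle. The liver is also a main site of cholesterol synthesis, which runs from acetyl-CoA through mevalonate, squalene and lanosterol. Transcription of that route is driven largely by SREBP-2, a membrane-bound factor that is released when sterol in the endoplasmic reticulum is scarce. The title of the study names cholesterol homeostasis, and these pathways are therefore described first.

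After 2 weeks the livers with and without choline were close to each other, and no gene passed the test. Genes of cholesterol synthesis stood higher with choline: 20 of 21 tested members had a positive log2 difference, with a median of 0.48, and in 15 of 21 (71.4%) both choline libraries lay above both water libraries. Over all genes tested that arrangement held for 3224 genes (18.6%), and the reverse, both choline libraries below both water libraries, for 3166 (18.3%). Squalene epoxidase, Sqle, stood at 2.51-fold its water level, and Idi1 and Fdps stood at 2.18-fold and 1.94-fold. Acss2, described below with fatty acid synthesis and not among the 21, stood at 2.02-fold. Genes of choline uptake and phosphatidylcholine synthesis had a median difference of -0.01, and those of betaine, methionine and folate metabolism a median of -0.16.

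The test was edgeR's quasi-likelihood test in 1 fit of all 16 libraries, and a gene was called at a Benjamini-Hochberg adjusted p under 0.05. It called 0 of 17292 genes (0%), with an adjusted p of 1 for every gene, and DESeq2 also called 0. An unadjusted p under 0.05 was found for 201 genes (1.16%), 131 higher and 70 lower with choline, and by DESeq2 for 176. P-values spread evenly would give 5%. The count of 0 depended on the fit: with the 4 libraries alone edgeR called 7 genes, 4 higher and 3 lower, among them Idi1 (adjusted p = 0.0185), Cyp51 (0.0192) and Nsdhl (0.0298) of cholesterol synthesis. Without the filter on low counts it called 55 genes, 37 higher and 18 lower, which include Sqle, Acss2, Idi1, Nsdhl and Fdps and, of other genes described here, Hmox1, Bcl6, Onecut1, Hmga1b, Ccn2, Chrna4 and Mup9. Standard errors also changed in that fit, to 0.24 from 0.82 with the filter for Bcl6 and to 0.23 from 0.99 for Onecut1. The 55 calls rest on those standard errors, and the cause of the change was not tested. With the filter, the median standard error of a log2 difference was 0.31, and the median half-width of its 95% interval was 0.67. For 11611 genes (67.1%) that half-width was under 1, the size of a 2-fold difference. With 2 libraries against 2, an exact two-sided permutation test of a single gene cannot go below p = 0.333, so none is given.

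Pairs of libraries from different groups were about as alike as pairs from the same group. Between the water libraries a gene differed by a median of 0.174 on the log2 scale, and between the choline libraries by 0.171. Across the 4 pairs of a choline with a water library the same median ran from 0.169 to 0.197. No library was a copy of another: the chi-square of their counts per degree of freedom was 12.6 to 18.9 in the 6 pairs.

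The 4 libraries held 23.1 to 25.9 Mcounts each (mega-counts), against 23.1 to 33.6 Mcounts over the 16, and 21294 to 21599 genes had at least 1 count. The label liver was met by the hepatocyte markers: all 9 in the table were detected, with summed levels of 80545 and 81129 CPM (counts per Mcount of the scaled library) with water and 78632 and 74986 CPM with choline. Between 10.1% and 10.8% of counts fell on genes of 7SL RNA, part of the machinery of protein secretion. The nuclear RNA Malat1 had 5619 to 6342 CPM in the 4 libraries compared here but only 146 CPM in control replicate 1, and TAA replicate 1 had 1019 CPM. Both outlying libraries share the fit's estimate of spread. Without them 0 genes were called and 693 (3.88%) had an unadjusted p under 0.05, an alternative chosen with earlier results of these data known.

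**Figure D1:**
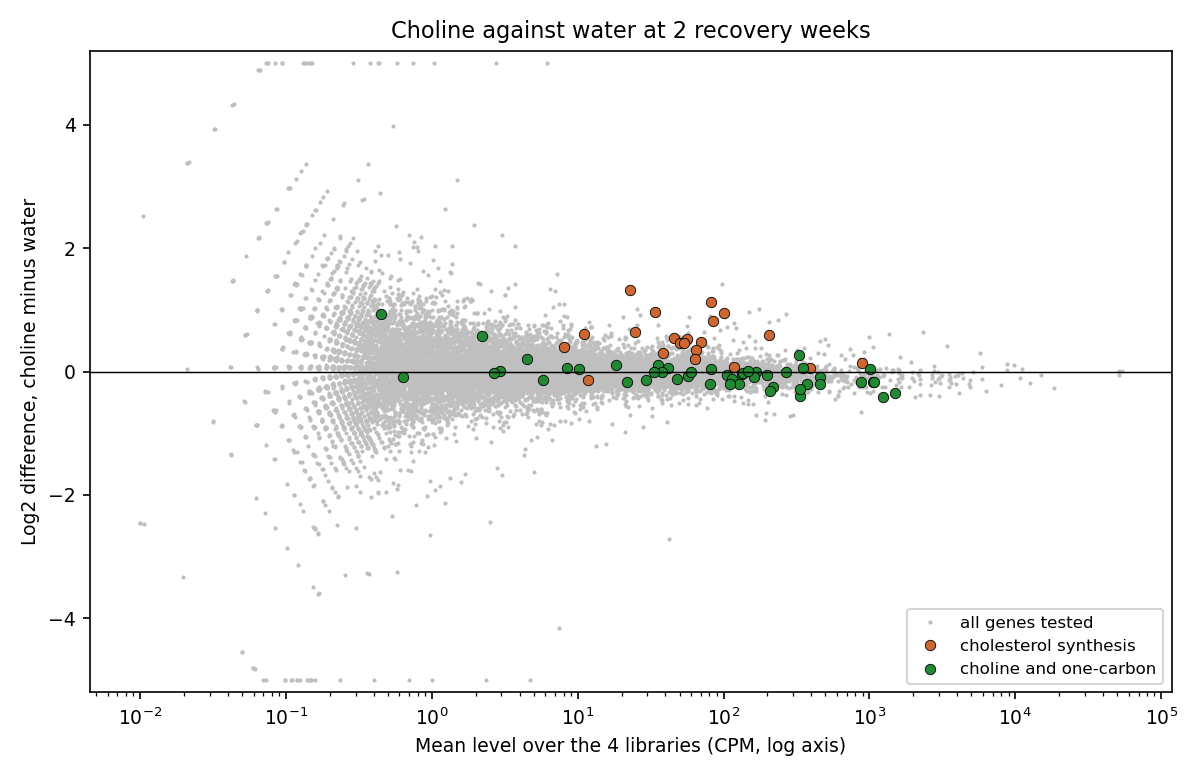
Each point is 1 of the 17292 genes tested, with its mean level over the 4 libraries (CPM, log axis) against the log2 difference of choline minus water; differences beyond 5 in either direction are drawn at 5. The cholesterol synthesis genes (orange) lie above 0 in 20 of 21 cases, the choline and one-carbon genes (green) lie on both sides of it, and no point passed the test.

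The early part of cholesterol synthesis, from acetyl-CoA to squalene, stood higher with choline almost throughout. Of its 10 genes, 9 had both choline libraries above both water libraries, 1 had them below, and the median log2 difference was 0.57. In bulk tissue such as whole liver, fewer cells of a type and less RNA per cell cannot be told apart.

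The route opens with Acat2, which joins acetyl-CoA units, at 59.7 and 57.8 CPM with water and 88.2 and 76.2 CPM with choline. Hmgcs1, the HMG-CoA synthase of the cytosol, was at 171 and 157 CPM with water and 268 and 228 CPM with choline. In both genes the groups did not overlap, and the log2 difference of Hmgcs1 was 0.60 ± 0.32 (SE, n = 2 per group; 95% interval -0.10 to 1.29).

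The kinases that act on mevalonate came next. Mvk, mevalonate kinase, was at 10.7 and 6.95 CPM with water and 15.1 and 11.7 CPM with choline. Pmvk, phosphomevalonate kinase (chromosome 3, 89454541 to 89469009), was at 17.5 and 21.1 CPM with water and 33.5 and 27.0 CPM with choline. Its log2 difference of 0.65 ± 0.16 (95% interval 0.30 to 1.00) was moderate in size but had the smallest standard error of the cholesterol synthesis genes. Mvd, the decarboxylase that makes isopentenyl diphosphate, was at 7.57 and 6.39 CPM with water and 10.4 and 8.02 CPM with choline, and its groups were close to touching.

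The prenyl steps held larger differences. Idi1, the isomerase that makes dimethylallyl diphosphate (chromosome 13, 8885501 to 8892451), was at 57.0 and 46.8 CPM with water and 119 and 107 CPM with choline. Both choline libraries lay far above both water libraries, a log2 difference of 1.13 ± 0.38 (95% interval 0.30 to 1.95). Fdps, farnesyl diphosphate synthase (chromosome 3, 89093588 to 89101959), was at 65.0 and 72.2 CPM with water and 154 and 113 CPM with choline, a difference of 0.96 ± 0.28 with the higher value in choline replicate 1. Fdft1, which joins farnesyl units to squalene, was at 47.6 and 44.6 CPM with water and 73.3 and 60.4 CPM with choline. Ggps1, which leads away from sterols to geranylgeranyl diphosphate, was the exception in this list. It was at 11.4 and 13.2 CPM with water and 11.2 and 11.3 CPM with choline, both choline libraries just below both water libraries, a difference of -0.13 ± 0.18.

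The later part, from squalene to cholesterol, was mixed. Of its 11 genes, 6 had both choline libraries above both water libraries, 0 had them below, and 5 overlapped; the median difference was 0.47. Sqle, which adds oxygen to squalene and is a second control point of the route (chromosome 15, 59315081 to 59331192), was at 15.5 and 10.7 CPM with water and 33.1 and 32.6 CPM with choline. The choline libraries were almost equal and both above either water library, and the log2 difference was 1.33 ± 0.45 (95% interval 0.35 to 2.30). Lss, which closes the ring to lanosterol (chromosome 10, 76531612 to 76557138), was at 33.9 and 40.2 CPM with water and 59.7 and 48.7 CPM with choline, a difference of 0.55 ± 0.20. Cyp51, the lanosterol demethylase, was at 58.4 and 63.1 CPM with water and 113 and 101 CPM with choline, with a gap between the groups wider than the spread within either.

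Nsdhl, a dehydrogenase of the demethylation steps, was at 23.9 and 21.8 CPM with water and 49.0 and 40.5 CPM with choline, a difference of 0.97 ± 0.36. Dhcr7, the reductase that makes cholesterol from its direct precursor, was at 46.6 and 43.5 CPM with water and 74.1 and 50.6 CPM with choline, where choline replicate 2 was close to the water level. The other gene without overlap was Hsd17b7, a reductase of the demethylation steps, at 36.3 and 32.1 CPM with water and 47.2 and 37.3 CPM with choline. Among the 5 genes that overlapped, Msmo1, the methyl sterol oxidase, differed by 0.47 ± 0.23 and Tm7sf2, a sterol reductase, by 0.21 ± 0.26. Ebp and Sc5d, the isomerase and desaturase near the end of the route, differed by 0.07 ± 0.24 and 0.06 ± 0.24.

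Across the whole route 10 of 21 genes had an unadjusted p under 0.05, all 10 higher with choline, where 0.758% of all genes tested did so in that direction. Per length, in the authors' TPM averaged over the 4 libraries, Mvd was at 3.38 TPM, Fdps at 60.4 TPM and Sc5d at 101 TPM. The median difference depended on choline replicate 1: without it the early median was 0.40 and the later median 0.17. Across all 16 libraries left out in turn the early median ran from 0.40 to 0.69 and the later median from 0.17 to 0.68.

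**Figure D2:**
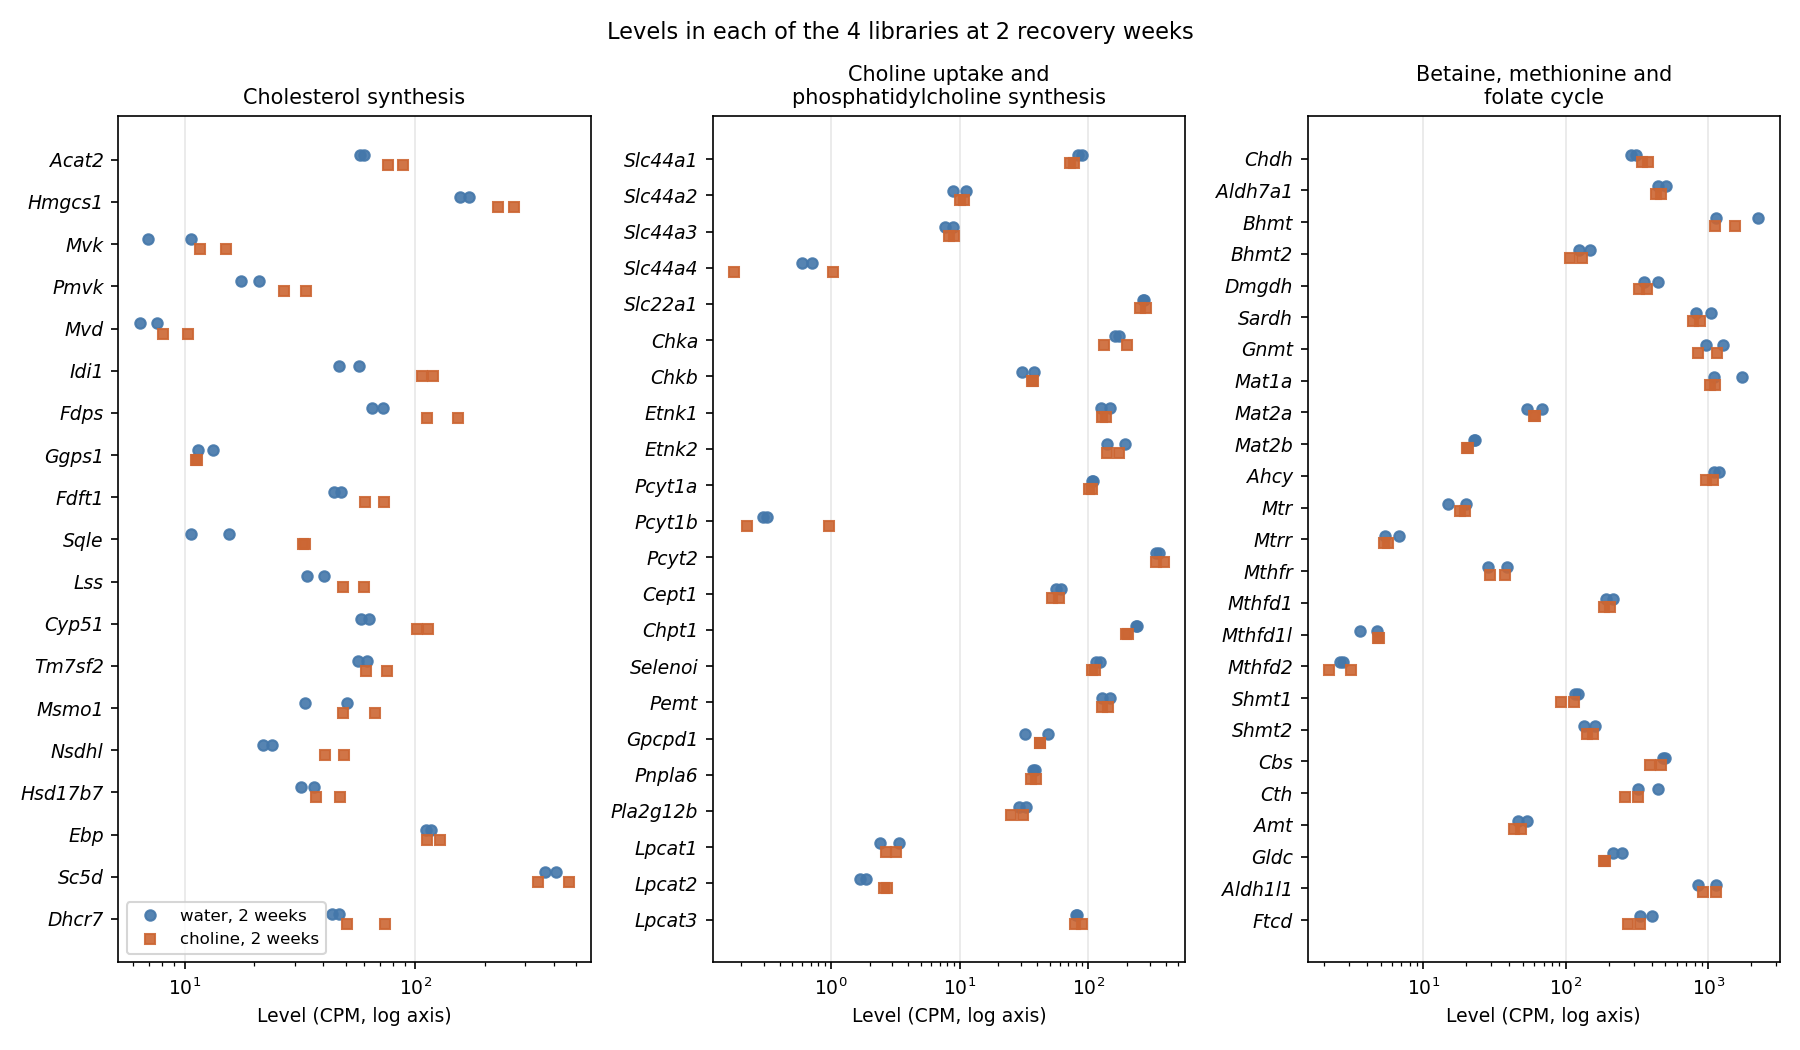
Levels (CPM, log axis) in each of the 4 libraries, 2 with water (blue circles) and 2 with choline (orange squares), for 19 of the 21 tested genes of cholesterol synthesis and the tested genes of choline uptake and phosphatidylcholine synthesis, and the betaine, methionine and folate cycle. In the left panel both choline points lie right of both water points for 14 of the 19 genes drawn; in the other panels the points of both groups mostly mix.

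Promoter sequence was at hand for 16 of these 21 genes, from RefSeq on GRCm38.p6, as 250 bases before to 50 after the gene start. The CCAAT box, bound by NF-Y, a partner of SREBP-2 at sterol gene promoters, was searched as ATTGG on both strands. It was found in 15 of 16 genes (93.8%), against 41.1% of 27025 genes. A gene counted if any of its windows held the word. The longer word TCACNCCAC, a form of the sterol regulatory element that SREBPs bind, was searched on both strands too. It was found in 1 of 16 genes (6.25%), Hmgcs1, against 1.44% of all genes. The 2 words do not overlap each other in letters. The 250 bases before the RefSeq start of 4 genes of the route are printed, 3 of them with an unadjusted p under 0.05 and Hmgcs1 for its longer word. All read 5′ to 3′ on the plus strand, and capitals mark ATTGG, its reverse complement CCAAT, or TCACNCCAC. RefSeq starts differ from the gene coordinates given elsewhere here: the stretch of Idi1 reaches past its start by those coordinates, and that of Hmgcs1 ends ahead of it.
Pmvk, chr3:89454291-89454540: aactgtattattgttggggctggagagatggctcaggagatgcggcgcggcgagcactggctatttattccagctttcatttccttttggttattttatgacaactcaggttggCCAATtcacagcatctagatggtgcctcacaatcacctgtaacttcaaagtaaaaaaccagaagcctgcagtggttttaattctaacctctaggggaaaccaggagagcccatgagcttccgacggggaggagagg
Idi1, chr13:8885356-8885605: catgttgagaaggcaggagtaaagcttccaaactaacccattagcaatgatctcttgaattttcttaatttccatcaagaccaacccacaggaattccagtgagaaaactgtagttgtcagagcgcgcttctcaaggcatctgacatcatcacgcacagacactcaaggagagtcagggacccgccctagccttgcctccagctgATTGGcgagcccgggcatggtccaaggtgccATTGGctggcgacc
Lss, chr10:76531355-76531604: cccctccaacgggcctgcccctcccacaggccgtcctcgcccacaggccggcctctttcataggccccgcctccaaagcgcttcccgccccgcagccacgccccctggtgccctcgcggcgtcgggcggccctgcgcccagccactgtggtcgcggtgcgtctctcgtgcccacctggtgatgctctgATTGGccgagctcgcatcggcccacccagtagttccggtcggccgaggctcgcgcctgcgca
Hmgcs1, chr13:119690101-119690350: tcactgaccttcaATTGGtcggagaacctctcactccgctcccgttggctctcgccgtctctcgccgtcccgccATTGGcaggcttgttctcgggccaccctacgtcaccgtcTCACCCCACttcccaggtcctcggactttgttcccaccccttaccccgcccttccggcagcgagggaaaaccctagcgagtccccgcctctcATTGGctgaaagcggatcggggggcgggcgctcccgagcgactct
A match says only that these letters stand in the window, and factor binding was not measured.

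The genes that regulate and take up sterol did not follow the synthesis genes as a group. Of 14 tested, 3 had both choline libraries above and 3 below both water libraries, where 18.6% and 18.3% of all genes did. The median difference was 0.01. Srebf2, the gene of SREBP-2, was at 56.0 and 27.4 CPM with water and 58.1 and 57.7 CPM with choline. Water replicate 2 alone was low, and the other 3 libraries were nearly equal. Insig1, which holds SREBPs back when sterol is plentiful, differed by 0.13 ± 0.20 with overlap.

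Srebf1, the gene of SREBP-1, which drives fatty acid synthesis, stood on the other side (chromosome 11, 60199089 to 60220604). It was at 366 and 346 CPM with water and 242 and 189 CPM with choline, both choline libraries below both water libraries, a difference of -0.73 ± 0.29 (95% interval -1.36 to -0.09). Genes of cholesterol export and the liver X receptor, its sterol sensor, had a median of -0.13. Of these 12 genes 1 lay above and 4 below without overlap, where 18.6% and 18.3% of all genes did. Abcg5 and Abcg8, the paired transporters that secrete sterol into bile, were at 83.8 and 62.6 CPM with water and 54.4 and 56.6 CPM with choline, and at 111 and 85.9 CPM with water and 70.7 and 73.3 CPM with choline. Both pairs lay lower with choline, by -0.40 ± 0.30 and -0.45 ± 0.32, and Abca1, which loads cholesterol onto lipoprotein, differed by -0.18 ± 0.22.

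The same contrast at the other recovery times shares no library with that at 2 weeks. The median difference of the 21 cholesterol synthesis genes was 0.17 after 1 week, 0.48 after 2 weeks and 1.16 after 4 weeks. The difference was larger after 4 than after 2 weeks in 19 of 21 genes, and Ggps1 was among the exceptions. After 4 weeks 4 of 21 were called higher, against 9 of all genes (0.052%). These were Pmvk at 1.48 ± 0.17 (edgeR adjusted p = 0.0118), Dhcr7 at 1.76 ± 0.19, Fdps at 2.00 ± 0.28 and Msmo1 at 1.64 ± 0.24. The water group itself changed over time. Its median log2 difference at 2 weeks minus the end of TAA was -1.61 in the early part and -1.12 in the later part. After 1, 2 and 4 weeks, Fdps had means of 141, 68.6 and 28.1 CPM with water and 175, 133 and 112 CPM with choline.

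The test of the difference between weeks called no gene in the fit of all 16 libraries after the filter on low counts. For the choline difference at 2 weeks minus that at 4 weeks edgeR called 0 of 17292 (0%), with 529 (3.06%) at an unadjusted p under 0.05, 6 of them among the 21 cholesterol synthesis genes. DESeq2 called 4 genes in that contrast, among them Dhcr7 of this route and Thrsp, a lipogenic gene of hepatocytes. For 2 weeks minus 1 week edgeR called 0, with 169 (0.977%) at an unadjusted p under 0.05, 1 of them in the route, and DESeq2 called Hmga1b alone. Without that filter edgeR called 31 genes for 2 weeks minus 1 week and 97 for 2 weeks minus 4 weeks, and Dhcr7 was among the 97 (edgeR adjusted p = 0.0169), so its call depends on the fit. Srebf1 was lower with choline at 2 weeks but had a positive difference of 0.88 ± 0.29 after 4 weeks; the gap of -1.61 ± 0.41 did not pass (edgeR adjusted p = 1), but was called without the filter (edgeR adjusted p = 0.00107).

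**Figure D3:**
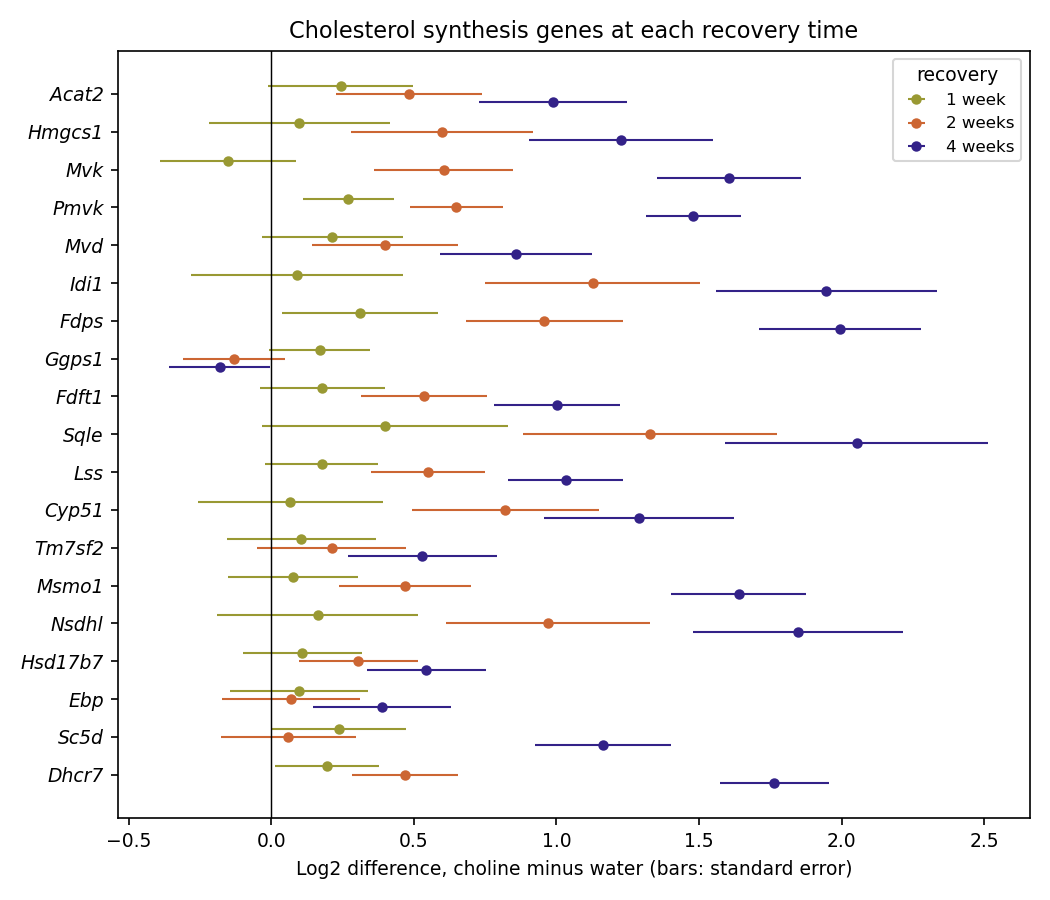
Log2 difference of choline minus water (bars: standard error) for 19 of the 21 tested cholesterol synthesis genes after 1 (olive), 2 (orange) and 4 (dark blue) weeks of recovery. The 2-week points mostly lie between the others, with medians over all 21 of 0.17, 0.48 and 1.16 in order of time.

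Set among all groups, the 2-week levels of these genes depend on where the water group stood. Sqle was at 143 and 98.0 CPM at the end of TAA, at 38.1 and 56.6 CPM after 1 week without choline and at 7.45 and 4.76 CPM after 4 weeks, so the 2-week water values of 15.5 and 10.7 CPM lie between those weeks. With choline it was at 71.3 and 53.6 CPM after 1 week and 12.7 and 37.9 CPM after 4 weeks, against 33.1 and 32.6 CPM at 2 weeks. In the control livers it was at 11.2 and 17.4 CPM, close to the 2-week water level.

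Fdps had another order. It was at 205 and 188 CPM in control and 259 and 158 CPM at the end of TAA, and the 2-week values with choline, 154 and 113 CPM, lay between those controls and the 2-week water values. Over the 21 genes, the 2-week choline mean was above the 1-week water mean in 6 and below the control mean in 13. Control replicate 1 and TAA replicate 1 are the libraries low in Malat1, and their part in these orders was not tested.

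**Figure D4:**
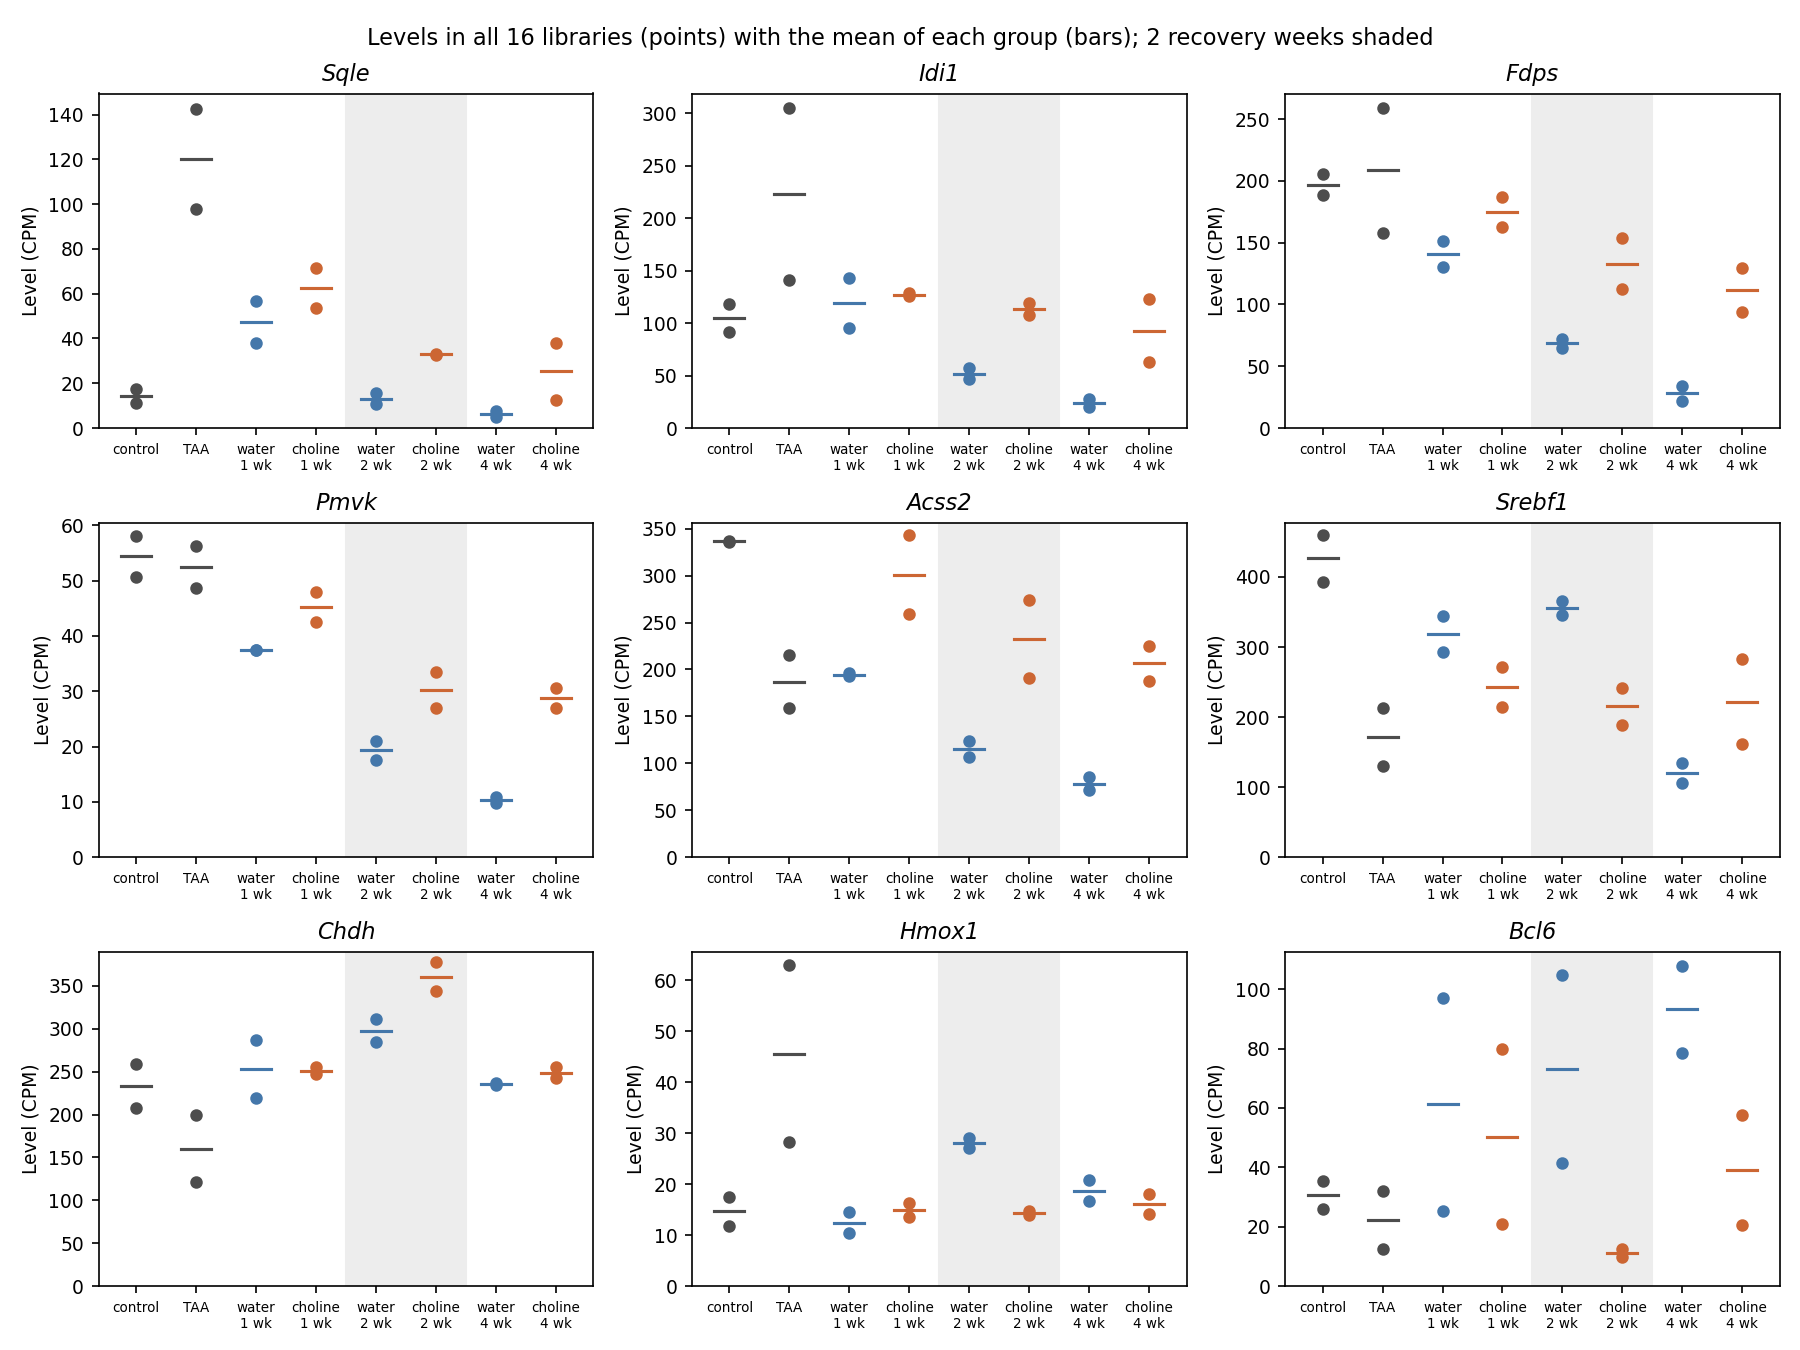
Levels (CPM) of 9 genes in all 16 libraries (points), with the mean of each group (bar); the 2-week groups are shaded, water in blue and choline in orange. Sqle, Idi1, Fdps, Pmvk and Acss2 have both choline points above both water points at 2 weeks, Srebf1, Hmox1 and Bcl6 have them below, and Chdh has them above by a small margin.

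Fatty acid synthesis, which draws on the same pool of acetyl-CoA, also leaned upward with choline. Of 18 genes, 7 had both choline libraries above both water libraries, 0 had them below, where 18.6% and 18.3% of all genes did, and the median was 0.29, or 0.11 without water replicate 1. Acss2, which makes acetyl-CoA from acetate and is a target of SREBPs (chromosome 2, 155517948 to 155562746), was at 107 and 123 CPM with water and 274 and 191 CPM with choline. Every choline value was over every water value, a difference of 1.02 ± 0.22 (95% interval 0.53 to 1.5). It was 0.63 ± 0.22 after 1 week and 1.40 ± 0.22 after 4 weeks, neither of them called. Pnpla3, a lipid droplet protein, was at 0.128 and 0.357 CPM with water and 0.932 and 0.961 CPM with choline, a low level at which few reads stand behind each value. Scd1, the desaturase that makes oleate, was at 9082 and 9696 CPM with water and 11636 and 8595 CPM with choline, and its groups overlapped. By the same measure Scd1 had 1388 TPM and Acss2 43.1 TPM.

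The genes that handle choline itself had differences around 0. Of 22 genes of choline uptake and phosphatidylcholine synthesis tested, 1 lay higher and 4 lower without overlap, where 18.6% and 18.3% of all genes did. Slc44a1, a choline transporter of the plasma membrane and mitochondria, was at 82.8 and 89.1 CPM with water and 77.0 and 72.3 CPM with choline. Chka, choline kinase, was at 173 and 160.3 CPM with water and 200.5 and 132 CPM with choline, with the highest and the lowest value both in the choline group. Pcyt1a, the rate-limiting enzyme of the CDP-choline route, was at 107 and 109 CPM with water and 107 and 101 CPM with choline, a difference of -0.06 ± 0.13 (95% interval -0.33 to 0.22).

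Pemt, which makes phosphatidylcholine from phosphatidylethanolamine in hepatocytes, was at 127 and 146 CPM with water and 143 and 127 CPM with choline. The groups overlapped, and its 95% interval ran from -0.60 to 0.56. The gene without overlap on the higher side was Lpcat2, an enzyme that adds an acyl chain to lysophosphatidylcholine, at 1.87 and 1.67 CPM with water and 2.57 and 2.72 CPM with choline. Cholinergic receptors and cholinesterases were mostly too low, with 8 of 17 tested. Of these 8 genes 4 lay higher and 1 lower without overlap, where 18.6% and 18.3% of all genes did. Chrna4, a nicotinic receptor subunit, was at 0.680 and 2.18 CPM with water and 6.30 and 5.60 CPM with choline.

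The oxidation of choline to betaine begins with choline dehydrogenase, Chdh, at 284 and 312 CPM with water and 345 and 377 CPM with choline. Both choline libraries lay above both water libraries by a small margin, a difference of 0.28 ± 0.22 (95% interval -0.20 to 0.76). Of the 25 genes of betaine, methionine and folate metabolism, Chdh among them, 2 lay higher and 6 lower without overlap, the latter a share not far from that over all genes (18.3%). Its median of -0.16 became -0.03 without water replicate 1 and -0.25 without choline replicate 1. Bhmt, which passes the methyl group of betaine to homocysteine, was at 2241 and 1133 CPM with water and 1549 and 1106 CPM with choline. Water replicate 1 was highest and choline replicate 1 next, so the groups overlapped. Mat1a, which makes S-adenosylmethionine, was at 1721 and 1104 CPM with water and 1107 and 1025 CPM with choline, again with water replicate 1 above the other 3 libraries.

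Gnmt, which uses surplus S-adenosylmethionine to methylate glycine, was at 1274 and 968 CPM with water and 1151 and 848 CPM with choline, with overlap. Gldc, of the glycine cleavage system, was at 248 and 215 CPM with water and 188 and 185 CPM with choline, both choline libraries below both water libraries. Bile acid synthesis and transport had a median of -0.02. Of its 24 genes 4 lay higher and 5 lower without overlap, near the 18.6% and 18.3% of all genes. Cyp7a1, the rate-limiting enzyme of bile acid synthesis, differed by 0.04 ± 0.41. Cyp8b1, which makes the cholic acid branch, was at 169.7 and 178 CPM with water and 170.4 and 72.5 CPM with choline, where choline replicate 2 alone was low.

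Among targets of NRF2, the factor that answers oxidative stress, more lay higher than lower with choline. Of 21 genes 10 lay higher and 2 lower without overlap, beside 18.6% and 18.3% of all genes, and the median was 0.25. Hmox1, haem oxygenase 1, was on the lower side (chromosome 8, 75093621 to 75100589): it was at 27.1 and 29.1 CPM with water and 14.7 and 14.0 CPM with choline. The values were even within each group and well apart between them, a difference of -0.97 ± 0.33 (95% interval -1.69 to -0.25). It was called with the 4 libraries alone (edgeR adjusted p = 0.0185) and without the filter (0.0197), and in no other alternative, where the adjusted p reached 1. Hmox1 is also a marker of Kupffer cells, the resident macrophages of the liver. Of 14 such markers 0 lay higher and 5 lower without overlap, and Hmox1 itself is among those 5. The summed level of the 14, Hmox1 included, was 448 and 525 CPM with water and 411 and 456 CPM with choline. The part of these cells in the Hmox1 values was not tested. G6pdx, which makes NADPH in the pentose phosphate route, was at 3.70 and 4.56 CPM with water and 7.81 and 7.77 CPM with choline, with both choline libraries higher.

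Some lists of secreted proteins and of metabolism leaned slightly downward with choline. Of 23 acute phase genes 0 lay higher and 11 lower without overlap (median -0.12), and of 26 complement and coagulation genes 1 higher and 10 lower (median -0.07). Of 22 genes of the urea cycle and amino acid catabolism 0 lay higher and 10 lower (median -0.21), and of 21 genes of mitochondrial electron transport 0 and 8 (median -0.04). Over all genes tested 18.6% lay higher and 18.3% lower in this way. The summed level of the complement and coagulation genes overlapped between groups, at 20647 and 20860 CPM with water and 21281 and 19980 CPM with choline. Without water replicate 1 the urea cycle median was -0.07. The differences were small: Serpina3n, a protease inhibitor of the acute phase, was at 192 and 149 CPM with water and 134 and 135 CPM with choline, and Saa1, serum amyloid A, at 19.5 and 13.3 CPM with water and 11.5 and 9.99 CPM with choline. Tat, tyrosine aminotransferase, was at 1049 and 1086 CPM with water and 773 and 581 CPM with choline, a difference of -0.66 ± 0.34. Summed hepatocyte markers, given above, were also lowest in choline replicate 2, and their part in these lists was not tested. G6pc, the phosphatase that releases glucose, stood on the other side, at 400.1 and 420.5 CPM with water and 694 and 483 CPM with choline.

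Some single genes with large differences were uneven between the libraries of a group. Bcl6, a transcriptional repressor that growth hormone signalling lowers in liver (chromosome 16, 23965052 to 23988852), was at 105 and 41.4 CPM with water and 12.6 and 9.65 CPM with choline. Both choline values were low, while the water values differed more than 2-fold from each other; the difference was -2.72 ± 0.82 (95% interval -4.50 to -0.93). Without the filter on low counts it was called (edgeR adjusted p = 8.12e-27). Its standard error in that fit was only 0.24, although the same uneven water values entered it. Bcl6 was as uneven in some other groups, at 97.0 and 25.4 CPM after 1 week with water and 20.8 and 79.9 CPM after 1 week with choline. It was more even in control, at 35.5 and 26.1 CPM, and after 4 weeks with water, at 108 and 78.6 CPM. Onecut1, a hepatocyte transcription factor, was at 40.4 and 65.8 CPM with water and 132 and 151 CPM with choline. Its groups did not overlap, but its interval of -0.74 to 3.57 was wide.

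Genes with a sex bias in mouse liver, which follow growth hormone pulses, are set beside 18.6% higher and 18.3% lower over all genes. Among 25 male-biased genes 1 lay higher and 6 lower (median -0.33), and among 17 female-biased genes 4 higher and 3 lower (median 0.45). The summed levels of both lists overlapped between groups. They were 14043 and 17502 CPM with water and 16220 and 14367 CPM with choline for the male-biased genes. For the female-biased genes they were 167 and 94.8 CPM with water and 127 and 259 CPM with choline. Mup9, a major urinary protein, was at 3.02 and 12.03 CPM with water and 2.89 and 2.01 CPM with choline, where water replicate 2 alone was high. It shares reads with near-identical family members, so its value is uncertain. Shared reads also make the value of Cyp2a5 uncertain, a coumarin hydroxylase that is in neither of these lists. It was at 1113 and 1037 CPM with water and 1525 and 1738 CPM with choline. The same holds for the reads of Cyp3a44, a drug-metabolising enzyme, at 0.468 and 0.635 CPM with water and 1.065 and 1.295 CPM with choline.

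Fibrosis genes showed no difference between choline and water that the test could call. Of 28 genes of extracellular matrix and its crosslinking 5 lay higher and 3 lower without overlap (median 0.17, or 0.02 without choline replicate 2 and 0.36 without choline replicate 1), shares of the size seen over all genes. Col1a1, the main chain of fibrillar collagen, was at 44.6 and 34.0 CPM with water and 39.9 and 56.5 CPM with choline. Choline replicate 1 lay within the water range and choline replicate 2 above it, a difference of 0.29 ± 0.45 (95% interval -0.69 to 1.28). Acta2, the actin of myofibroblasts, differed by 0.11 ± 0.53, and Timp1, an inhibitor of matrix proteases, was under 1 CPM in each library, at 0.340 and 0.159 CPM with water and 0.0888 and 0.251 CPM with choline. Ccn2, a matrix-associated growth factor gene, was at 5.15 and 3.65 CPM with water and 8.97 and 9.15 CPM with choline, both choline libraries higher.

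Cell type markers of the bile duct and of scar-forming cells were highest in choline replicate 2. Their counts without overlap, and those of endothelial cells, are set beside 18.6% higher and 18.3% lower over all genes tested. Of 14 tested cholangiocyte markers, the bile duct cell genes, 5 lay higher and 0 lower without overlap, with a median of 0.49. Their summed level was 115.1 and 114.6 CPM with water and 114.9 and 179.4 CPM with choline, so choline replicate 2 alone stood higher; 1 of 15 markers was at 0 in all 4 libraries. Without choline replicate 2 the median was -0.08. Myofibroblast markers showed the same library, with sums of 202 and 176 CPM with water and 191 and 256 CPM with choline. Markers of sinusoidal endothelial cells summed to 490.4 and 498 CPM with water and 477 and 465 CPM with choline. Those of other endothelial cells summed to 286 and 255 CPM with water and 205 and 221 CPM with choline, with 3 of 10 genes lower and 0 higher without overlap.

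Markers of lymphocytes and neutrophils were low in all 4 libraries. Counts without overlap here stand beside 18.6% higher and 18.3% lower over all genes tested. Markers of T and NK cells summed to 3.36 and 6.15 CPM with water and 4.13 and 3.22 CPM with choline, those of B and plasma cells to 20.1 to 22.98 CPM over both groups, and those of neutrophils to 2.08 to 2.97 CPM. Markers of monocyte-derived macrophages were higher in level, with sums of 123 and 142 CPM with water and 141 and 188 CPM with choline. Choline replicate 2 alone was high, as in the sum of the cholangiocyte markers, and both lists hold Spp1. Of 13 macrophage markers tested, 4 lay higher and 2 lower without overlap, with a median of 0.21. Dendritic cell markers summed to 84.4 and 84.5 CPM with water and 96.1 and 88.9 CPM with choline. Of 17 tested genes of chemokines and cytokines 1 lay higher and 7 lower without overlap, with a median of -0.17. Among them Il1b, a cytokine of activated macrophages, was at 1.83 and 3.14 CPM with water and 0.799 and 0.627 CPM with choline, with both choline libraries lower. Igha, the heavy chain of immunoglobulin A, was at 4.08 and 4.33 CPM with water and 1.51 and 1.34 CPM with choline, a difference of -1.56 ± 0.45. Of 15 markers of quiescent stellate cells 2 lay higher and 3 lower, with a median of 0.03 and sums of 435 and 448 CPM with water and 415 and 469.7 CPM with choline. Lrat, which stores retinol in these cells and had the smallest p of the list, was at 19.2 and 22.6 CPM with water and 15.0 and 16.1 CPM with choline, a difference of -0.43 ± 0.17.

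**Figure D5:**
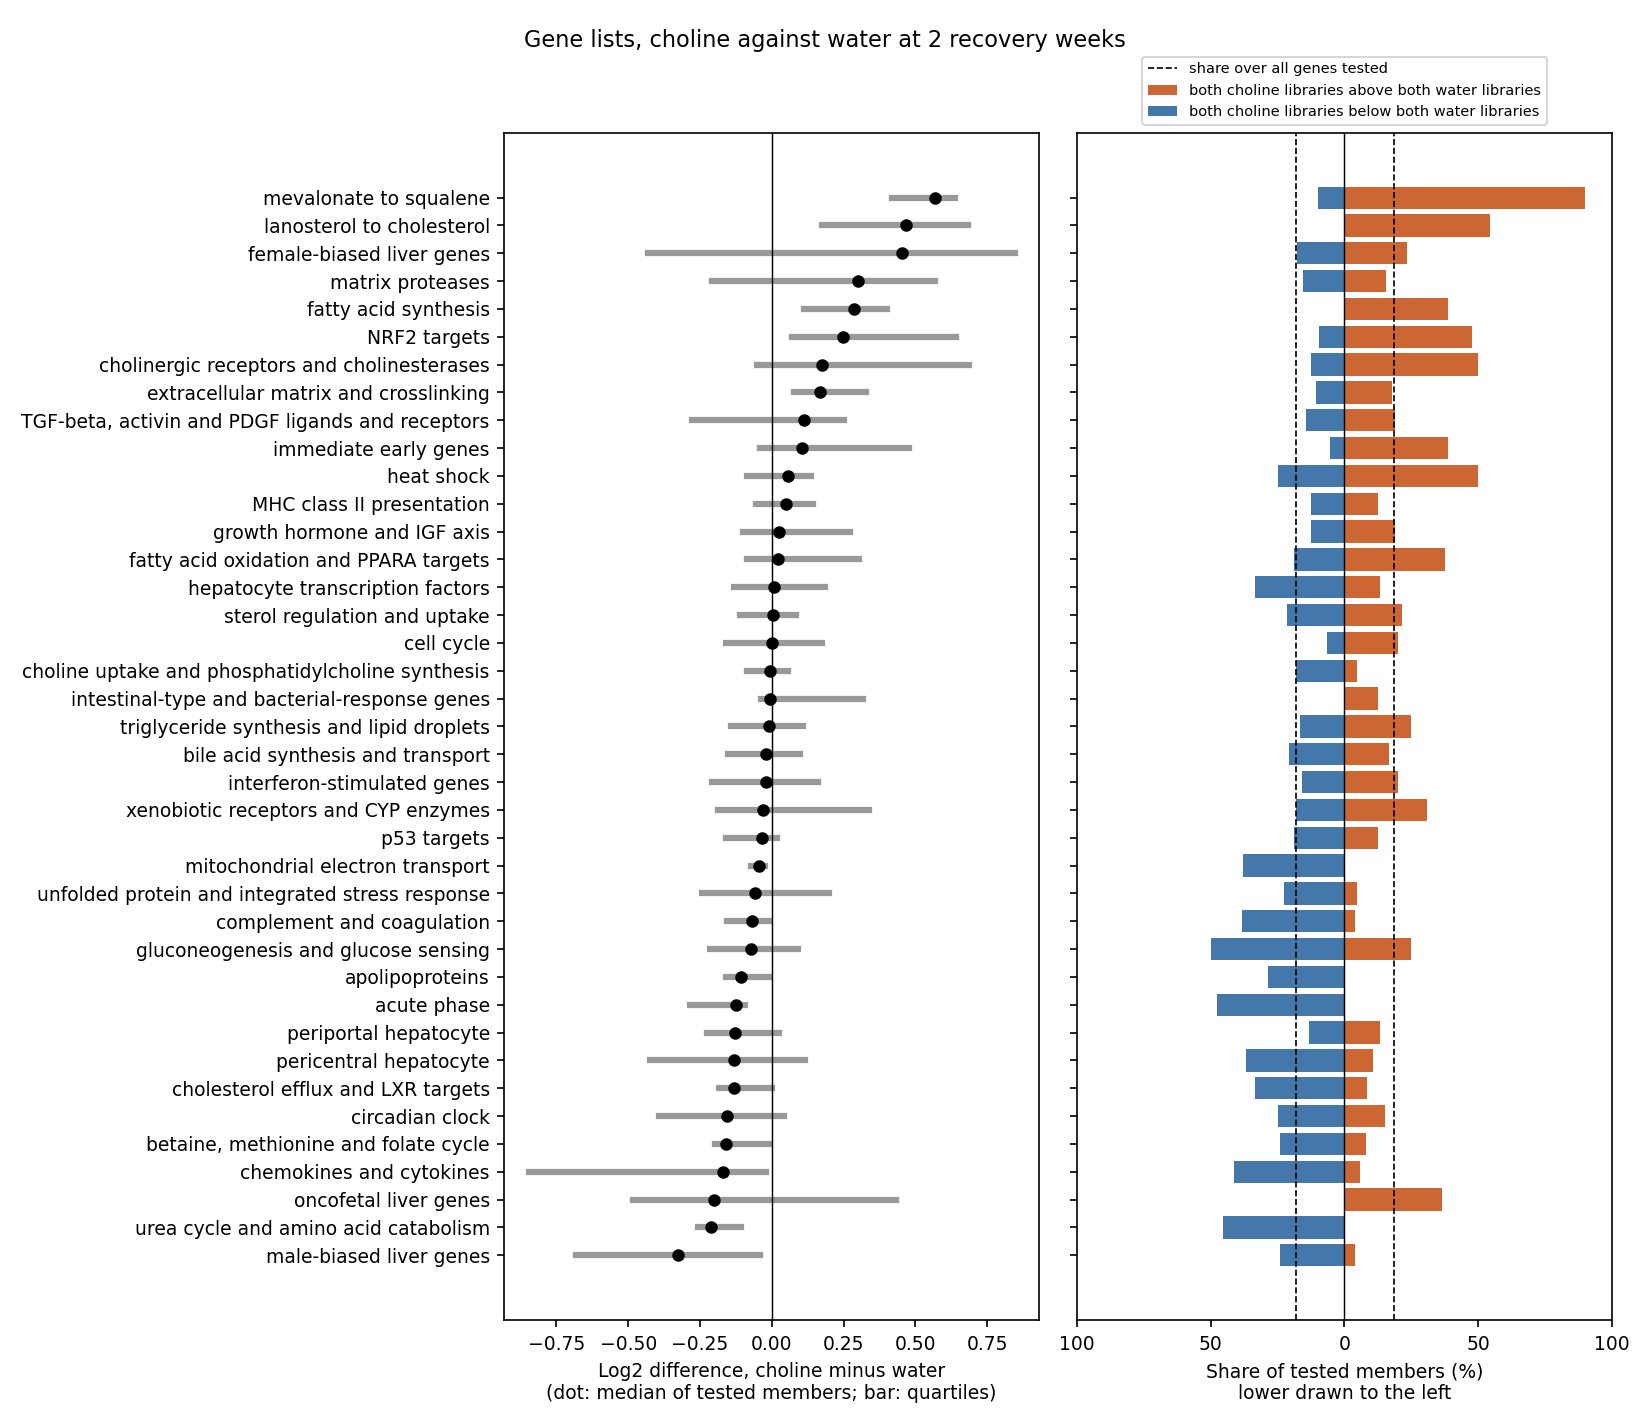
Left, the median log2 difference of choline minus water (dot) and its quartiles (bar) over the tested members of 39 pathway lists; right, the share of members (%) with both choline libraries above (orange) or below (blue) both water libraries, with the shares over all genes tested as dashed lines. The mevalonate to squalene list stands at 0.57 and the lanosterol to cholesterol list at 0.47, and most other medians lie within 0.3 of 0.

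The genes with the smallest p, none of them passing, were for the most part low in level. On the higher side, beside Acss2 and Pmvk, stood Hmga1b, a chromatin protein gene with a near-identical copy, Hmga1, so that its reads are uncertain. It was at 0.383 and 0.238 CPM with water and 3.11 and 2.26 CPM with choline. The others were pseudogenes, CT010467.2 and Gm13502, whose reads may come from their parent genes. On the lower side stood Gria3, a glutamate receptor subunit, at 2.42 and 2.74 CPM with water and 0.843 and 0.794 CPM with choline, and Enho, the gene of the hepatic peptide adropin, at 6.25 and 6.83 CPM with water and 3.02 and 3.01 CPM with choline. Tchh, a hair follicle protein gene, was at 0.935 and 3.06 CPM with water and 0.577 and 0.334 CPM with choline, where water replicate 2 alone was high.

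A further gene, 2210418O10Rik (chromosome 2, 176226569 to 176240328), was chosen after its values were seen. It had 222 and 234 counts with water and 0 in both choline libraries, at least 70.3-fold lower with a floor of 3 counts per library. It did not pass (edgeR adjusted p = 1), but it had the smallest adjusted p with the 4 libraries alone (edgeR adjusted p = 0.000376) and was called without the filter on low counts (edgeR adjusted p = 1.26e-48). Its standard error was 0.72 without the filter and 3.26 with it. The gene was also at 0 in replicate 1 of 1 week with water and at 0.514 CPM in TAA replicate 1, so values at or near 0 occurred outside the choline group.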

How the data were processed

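Total RNA of whole liver was extracted with TRIzol, depleted of ribosomal RNA and made into directional libraries, per the labels' protocols. The deposited expected counts are estimated counts of reads per gene, not normalised by the authors; 8.66% of the values had a fractional part. Per the submitters' processing notes, the tools were RSEM 1.3.3, STAR 2.7.10b and DESeq2 1.36.0 and the genome build was GRCm38; no roles are listed. The deposited TPM values, scaled by the authors for gene length and to one total, were used only for levels per length and the share of 7SL RNA. Strand setting and annotation release: not given in the sources used here, so overlapping and antisense genes are uncertain. A pair of columns (2) in each table matched no sample and were not used.

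Counts were rounded, filtered with filterByExpr and scaled by TMM in edgeR 4.0.16 (R 4.3.3). A robust quasi-likelihood fit of 8 groups in 16 libraries left 8 residual degrees of freedom, and p-values were Benjamini-Hochberg adjusted over 17292 genes. Levels are CPM relative to the scaled library size. The fit was checked on simulated counts. The replicate numbers of the labels gave no sign of pairing between the 2-week groups (correlation of their deviations 0.041 across genes). Pairing in the other groups was not tested. Alternatives were DESeq2 1.42.0, its size factors, no filter, a replicate block, 7SL genes left out, fewer libraries, and each library left out in turn. The 57 gene lists, 39 of pathways and 18 of cell type markers, held 912 genes, of which 908 were in the table. The text names up to 2 members of each list with the smallest p, a fixed set of choline, sterol and fibrosis genes, the 5 genes with the smallest p in each direction, and the cholesterol synthesis genes tested. Of these, 4 genes of sterol metabolism are not reported here by name, though counts and medians of lists include them. The comparison, members and lists were chosen with earlier results of these data known.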

Additional observations from a re-analysis of the deposited data

How the results depend on the processing

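The count of 0 called genes between choline and water held with DESeq2's test, DESeq2's size factors, 7SL genes left out, the libraries low in Malat1 left out, and the 12 recovery libraries alone. It also held with the replicate number as a block (0 called), although the numbers gave no sign of pairing at 2 weeks. With the 4 libraries alone 7 genes were called and without a filter 55, and with 1 library left out 0 to 2 were, the 2 being without water replicate 2; the cause was not tested. For 2 weeks minus 1 week, DESeq2 called 1 gene and the fit without a filter 31, and for 2 weeks minus 4 weeks 4 and 97. Among 72 genes named, 1726 values under alternatives kept direction and side in 1676 cases, were newly called in 22 and changed sign in 28, all 28 in 11 genes. Chka was at 0.0074 with the replicate block and at 0.0026 with the 4 libraries alone. Alternatives for list medians were chosen after seeing the data: with 1 library left out the mevalonate median ran from 0.40 to 0.69 and the lanosterol median from 0.17 to 0.68. Log2 differences that changed sign with 1 library left out ran from -0.015 to 0.26 for Insig1, -0.40 to 0.048 for Gnmt, -0.75 to 0.23 for Bhmt, -0.12 to 0.089 for Pemt, -0.34 to 0.27 for Chka, -0.28 to 0.41 for Acta2, -1.44 to 0.10 for Timp1, -0.23 to 0.29 for Cyp7a1, -0.13 to 0.31 for Scd1, -0.022 to 0.16 for Ebp and -0.19 to 0.27 for Sc5d. Where 1 library of a pair is left out, the lone library is assumed to vary like the other groups. With 2 libraries a group, the half-width of a 95% interval was under 1 on the log2 scale for 67.1% of genes.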

Other observations

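Other gene groups were measured at 2 weeks and none held a called gene in the fit of all 16 libraries. Their counts without overlap stand beside 18.6% higher and 18.3% lower over all genes tested. Of 32 genes of fatty acid oxidation and PPARA targets 12 lay higher and 6 lower with choline without overlap, with a median of 0.02. Cyp4a10, which oxidises the far end of fatty acids, was at 416 and 349.5 CPM with water and 509 and 571 CPM with choline, and Acot2, a mitochondrial thioesterase, at 12.1 and 7.82 CPM with water and 13.7 and 14.7 CPM with choline. In both genes each choline library was above each water library. Of 12 heat shock genes 6 lay higher and 3 lower (median 0.06), and Hspa1a, an inducible chaperone, was at 0.468 and 0.834 CPM with water and 1.82 and 2.21 CPM with choline. Of 18 immediate early genes, which respond to stimuli within minutes, 7 lay higher and 1 lower (median 0.10).

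Txnip, an inhibitor of thioredoxin that responds to glucose, and Cyp26b1, which breaks down retinoic acid, were 2 of the 7 genes called in the fit of the 4 libraries alone and were named after their values were seen. Txnip was at 78.1 and 65.5 CPM with water and 123 and 142 CPM with choline, and Cyp26b1 at 21.9 and 21.3 CPM with water and 10.5 and 8.69 CPM with choline. The values did not overlap between groups, and in the fit of all 16 libraries neither passed (edgeR adjusted p = 1). Cyp26b1 was also called without the filter on low counts (edgeR adjusted p = 0.00191), where its standard error was 0.25, against 0.66 with the filter.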
